A study of Mus musculus with 25 samples.

Results

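The response of cortical neurons to spinal cord injury (SCI) after 1 day was examined in wild-type (WT) mice by comparing 3 WT SCI day 1 libraries (replicates 1, 8 and 11) with 4 WT sham libraries (replicates 3, 10, 14 and 17), chosen by their labels from the 25 libraries of the series. Sham animals had surgery without injury to the cord and are labelled as day 0. The injury was a complete crush of the thoracic spinal cord in young adult C57BL/6 mice of both sexes. All animals, controls included, carried homozygous floxed *Rest* alleles and a tdTomato reporter behind a floxed stop. WT animals received AAV-Syn-GFP in the sensorimotor cortex, so that *Rest* was intact and GFP was driven by the synapsin promoter, which is active in neurons in general and not only in those that project to the cord. REST cKO animals, used below as a second and separate set, received AAV-Syn-Cre, which deletes *Rest* and turns on tdTomato. Fluorescent live cells were sorted from dissociated cortex, about 1000 per library, and their RNA was sequenced by 3′ mRNA sequencing, which reads only the ends of transcripts. All 9931 genes with a symbol were compared.

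Neurons of layer 5 of the motor cortex send the corticospinal tract to the spinal cord, where it controls voluntary movement. A crush of the thoracic cord cuts these axons far from their cell bodies, which remain in the cortex, and in adult mammals the axons do not regrow across the lesion. After peripheral nerve injury, by contrast, axotomized neurons induce regeneration-associated genes, among them the transcription factors *Atf3*, *Jun*, *Sox11*, *Stat3* and *Smad1* and growth cone proteins such as *Gap43*.

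The deposited values are log10 of a normalized count plus 0.001, so that a value of 0 is about 1 normalized count and a difference of 1 is a ratio of 10. In the 4 libraries of batch 1, a single read was worth 0.157 normalized counts in sham replicate 3, 0.315 in sham replicate 10, 0.518 in day 1 replicate 1 and 0.198 in day 1 replicate 8. A gene that goes from no read to 1 read therefore moves by over 2 log10 units, and large differences in genes near or under 0 can rest on few reads. Values under -2, which in batch 1 stand for genes without a detected read, made up between 3.85% and 12.3% of the genes in the 7 libraries, and day 1 replicate 1 had the highest share and the lowest weight (0.528) when weights were estimated for the libraries. Batch 1 held day 1 replicates 1 and 8 and sham replicates 3 and 10, and batch 2 held day 1 replicate 11 and sham replicates 14 and 17. What a batch shared is not stated in the labels. Genes without reads lay at -3 in batch 1 before the regression, but the value shared by low libraries in batch 2 had a median of -2.55 and differed between genes, so the scale of batch 2 may differ and the sizes of differences in the 2 batches are not directly comparable.

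The label of the cells, cortical motor neurons, was set against marker genes. Neuronal markers were detected, but the summed level of microglia markers was higher. The lists differ in size and genes, so the sums do not give the share of RNA from each cell type. The 12 pan-neuronal markers summed to a log10 level of 2.10 to 3.07 in sham and 3.32 to 3.70 at day 1, whereas the 19 microglia markers, all of them in the table, summed to 4.61 to 4.85 in sham and 4.25 to 4.68 at day 1. *Cx3cr1*, the fractalkine receptor of microglia, had values of 3.12, 3.44, 3.55 and 3.18 in sham and 3.40, 2.87 and 3.07 at day 1. *Slc17a7*, the vesicular glutamate transporter of cortical excitatory neurons, had values of 1.75, 1.93, 1.75 and 2.13 in sham and 1.79, 2.10 and 1.78 at day 1. Both genes were detected in all 7 libraries with overlapping groups. Of 16 markers of layer 5 and corticospinal neurons, 7 were among the genes analysed, and *Bcl11b*, the transcription factor that specifies corticospinal neurons, ranged from -0.51 to 1.95 in sham and from 0.18 to 1.97 at day 1. *Gfap* was not among the genes analysed. In bulk libraries, fewer cells of a type and less RNA per cell cannot be told apart.

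Marker levels differed between the groups in several lists, although no marker passed the test across all genes. The pan-neuronal sums of the 3 day 1 libraries all lay above those of the 4 sham libraries, and so did the sums of the 11 excitatory neuron markers (2.97 to 3.17 against 2.47 to 2.80). Astrocyte markers (15 of 18 measured) summed to 2.69 to 3.50 in sham and 3.40 to 4.31 at day 1, and 15 of 15 had a fitted difference above 0, with overlapping sums. Markers of oligodendrocytes and their precursors (14 of 18 measured) summed to 1.63 to 2.57 in sham and to 2.44, 4.28 and 3.82 in day 1 replicates 1, 8 and 11. In the other direction, 19 of 19 microglia markers had a fitted difference below 0, with a median of -0.31, while over all genes 55.9% of fitted differences were above 0. The median of the microglia markers was -0.09 without day 1 replicate 8, the library with the lowest microglial sum. These shifts run alongside every gene group described below. Their part in those results was examined only by a fit with the mean of the microglia markers as a term, chosen after the marker levels had been seen, and by leaving out single libraries.

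**Figure D1:**
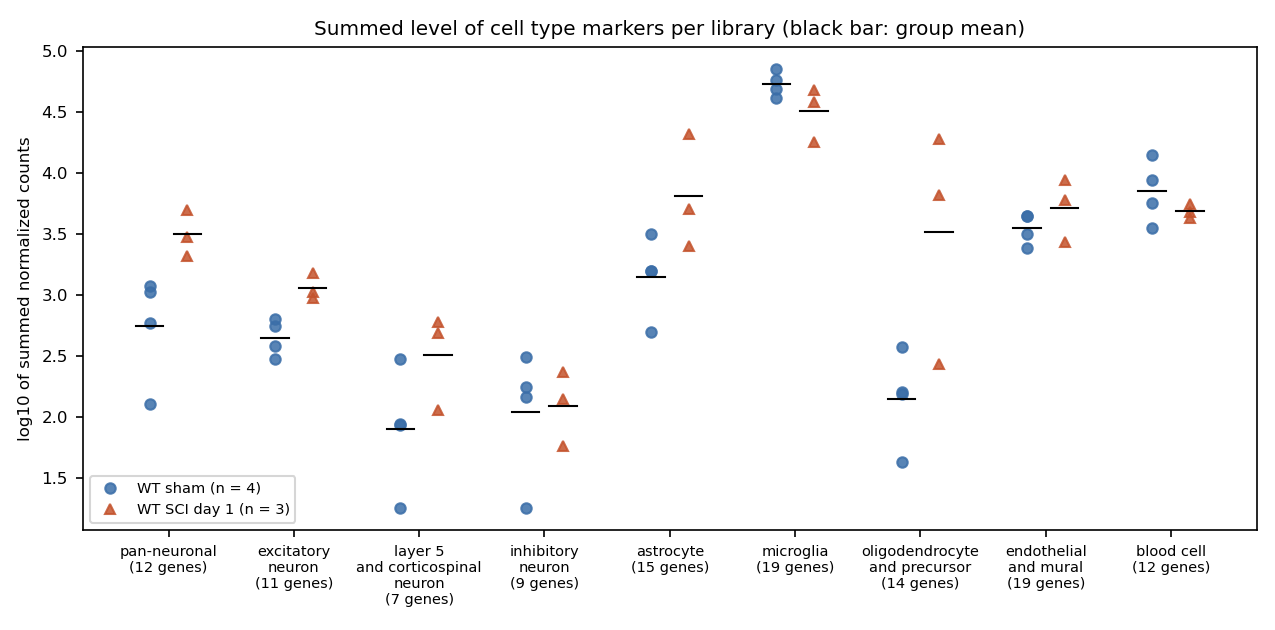
Summed level of 9 marker lists in each library, as log10 of the summed normalized counts (vertical axis), for 4 WT sham libraries (circles) and 3 WT SCI day 1 libraries (triangles), with black bars at the group means. Microglia markers have the highest group means, although the oligodendrocyte sum of day 1 replicate 8 (4.28) is above its microglia sum (4.25), and the pan-neuronal and excitatory neuron sums of the 2 groups do not overlap.

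Across the transcriptome, no gene passed the test for a change 1 day after SCI. In limma's moderated test, 0 of 9931 genes (0%) reached an adjusted p-value under 0.1, and the lowest adjusted p-value was 0.197. At an unadjusted p-value under 0.05, 389 genes were higher (3.92%) and 250 were lower (2.52%) at day 1, together 6.43%. In 431 genes (4.34%) every day 1 library lay above every sham library, and in 266 genes (2.68%) every one lay below, together 7.02%. The median fitted difference of all genes was 0.12 on the log10 scale. With quantile normalization it was -0.02, and the unadjusted counts became 383 higher and 398 lower, so the excess of higher over lower genes depended on the scaling. With library weights 634 genes were higher and 409 lower, and with the microglia term 235 were higher and 198 lower. Leaving out single libraries gave 273 to 429 higher and 207 to 314 lower. Counts of the lists under these alternatives are to be read against these counts of all genes. All differences below are therefore values that did not pass the test across all genes, and they are given with the spread between libraries.

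Of the 12 genes with the highest moderated t among those without overlap, those known from neurons are given first. *Slc24a2*, a potassium-dependent sodium/calcium exchanger of neurons, had values of 0.12, 1.78, 1.20 and 0.87 in the sham libraries and 2.90, 2.89 and 2.74 at day 1. Its fitted difference was 2.26 (standard error 0.49, adjusted p = 0.197), adjusted for the 2 components, against a difference of group means of 1.85. It lies on the minus strand of chromosome 4 (86983124 to 87230477, GRCm38). *Gpm6a*, a neuronal membrane glycoprotein that promotes filopodia and neurite growth, is on the plus strand of chromosome 8 (54954843 to 55060871). It had values of 0.71, 2.10, 1.38 and 1.65 in sham and 3.68, 2.95 and 2.56 at day 1, a fitted difference of 1.82 (standard error 0.40, adjusted p = 0.197) against a difference of means of 1.60. In all 24 genes named by rank here the fitted difference was larger in size than the difference of means. In *Slc24a2* and *Gpm6a* the lowest day 1 library stood above the highest sham library, as the choice of genes required.

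*Scn8a*, which encodes the voltage-gated sodium channel of the axon initial segment and nodes, had close values within each group. They were 0.15, 0.18, 0.22 and 0.58 in sham and 2.19, 2.32 and 2.43 at day 1, with a fitted difference of 2.24 (standard error 0.57, adjusted p = 0.439) and a difference of means of 2.03. *Mapt*, which encodes the axonal microtubule-binding protein tau, had values of 0.99, 1.59, 1.52 and 1.42 in sham and 2.33, 3.08 and 2.80 at day 1, with a fitted difference of 1.46 (standard error 0.35, adjusted p = 0.366). *Tuba1a*, the alpha-tubulin of growing neurons, had values of 1.58, 2.58, 2.45 and 2.78 in sham and 3.36, 3.43 and 3.04 at day 1, with a fitted difference of 1.00 (standard error 0.27, adjusted p = 0.550). In all of them the groups were apart by the choice of genes. For *Tuba1a* the gap between the lowest day 1 and the highest sham library was the smallest of the 5. Reads of *Tuba1a* can be shared with near-identical alpha-tubulin genes, so its level is uncertain. *Vsnl1*, a neuronal calcium sensor, had a fitted difference of 2.32 and *Pou3f3*, a POU-domain transcription factor of upper-layer cortical neurons, one of 1.86. *Atp6v1e1*, a subunit of the vacuolar proton pump, had values of -2.63, 2.16, 1.00 and 0.99 in sham, so that its fitted difference of 2.64 rested in part on sham replicate 3, and values of 2.86, 3.04 and 2.35 at day 1.

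Genes known from glia stood in the same set. *Gja1*, which encodes connexin 43 of astrocyte gap junctions, is on the plus strand of chromosome 10 (56377330 to 56402513). It had values of -0.20, 0.02, 0.62 and 0.09 in sham and 2.66, 2.48 and 1.53 at day 1, with a fitted difference of 2.29 (standard error 0.49, adjusted p = 0.197) and a difference of means of 2.09. *Plpp3*, a lipid phosphatase that is abundant in astrocytes, had values of 0.10, 0.58, 1.22 and 0.88 in sham and 2.08, 1.98 and 2.61 at day 1. *Ddr1*, a collagen receptor kinase, had values of -0.27, -2.88, -0.23 and -0.80 in sham and 1.17, 3.15 and 2.12 at day 1. All 4 sham libraries were under 0 for *Ddr1* and for *Fam162a*, a hypoxia-induced mitochondrial protein gene with day 1 values of 1.62, 2.74 and 0.42. The size of their fitted differences, 3.47 and 3.76, thus depended on sham libraries with few reads or none.

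Among the 12 genes with the lowest moderated t, *Mob1a* and *Fcgr1* had the lowest. *Mob1a*, an adaptor of the Hippo kinase pathway, is on the plus strand of chromosome 6 (83326016 to 83343776). Its values were 2.94, 2.75, 3.10 and 3.43 in sham and 2.49, 0.80 and 1.40 at day 1, with a fitted difference of -1.76 (standard error 0.34, adjusted p = 0.197) and a difference of means of -1.49. Over 24 alternatives its adjusted p-value by limma was under 0.1 in 8, and it was 0.999 with the microglia term. Leaving out single libraries brought it under 0.1 only without day 1 replicate 1 (0.00924). That was the day 1 library nearest to sham, so leaving it out favours a larger difference. *Fcgr1*, the high-affinity IgG receptor of microglia and macrophages, is on the minus strand of chromosome 3 (96282909 to 96293969). Its values were 1.88, 2.55, 3.13 and 2.64 in sham and 0.65, 0.04 and 0.93 at day 1, with a fitted difference of -2.31 (standard error 0.49, adjusted p = 0.197) and a difference of means of -2.01. Both genes were well detected in every sham library. Being lower in every day 1 library was a condition of their choice, met by 2.68% of all genes.

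The other genes of this set have varied functions. *Naaa*, a lysosomal amidase, had values of 2.19, 1.87, 2.25 and 2.26 in sham and -0.06, 0.37 and 1.80 at day 1. *Olfml3*, a secreted protein enriched in microglia, had values of 2.49, 2.69, 2.81 and 2.31 in sham and 1.62, 1.07 and 1.67 at day 1. *Sppl2a*, an intramembrane protease of lysosomes, had values of 2.79, 2.98, 3.27 and 2.67 in sham and 2.45, 1.86 and 1.54 at day 1. Their fitted differences were -1.74, -1.26 and -1.07. *Wdr43*, a ribosome biogenesis factor, had close sham values of 2.07, 2.16, 2.13 and 1.91, against 0.53, -0.47 and 0.58 at day 1. *Tomm20*, the receptor of the mitochondrial outer membrane import machinery, had values of 3.08, 1.69, 2.01 and 2.72 in sham and 0.42, 1.26 and 1.09 at day 1. *Atp7a*, the copper-transporting ATPase, had 1 sham library (replicate 14, 0.52) close to its highest day 1 value of 0.42. *Zfas1*, a host gene of small nucleolar RNAs, and *Khk*, fructokinase, had fitted differences of -1.32 and -3.06, and *Pald1* and *Nhlrc2* of -1.82 and -3.72.

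All 24 genes kept their direction within both batches, although batch 2 had a single day 1 library. For *Gja1* the difference of means was 2.66 in batch 1 and 1.17 in batch 2, for *Slc24a2* it was 1.95 and 1.70, for *Mob1a* it was -1.20 and -1.87, and for *Fcgr1* it was -1.88 and -1.95. Since the genes had been chosen for groups that do not overlap, the shared sign is a consequence of the choice and the sizes are given as a description. With the microglia term, the fitted difference was 1.72 for *Gja1*, 2.79 for *Slc24a2*, 2.52 for *Gpm6a*, 2.90 for *Scn8a*, -1.52 for *Mob1a* and -1.82 for *Fcgr1*, and 0 genes passed the adjusted threshold.

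**Figure D2:**
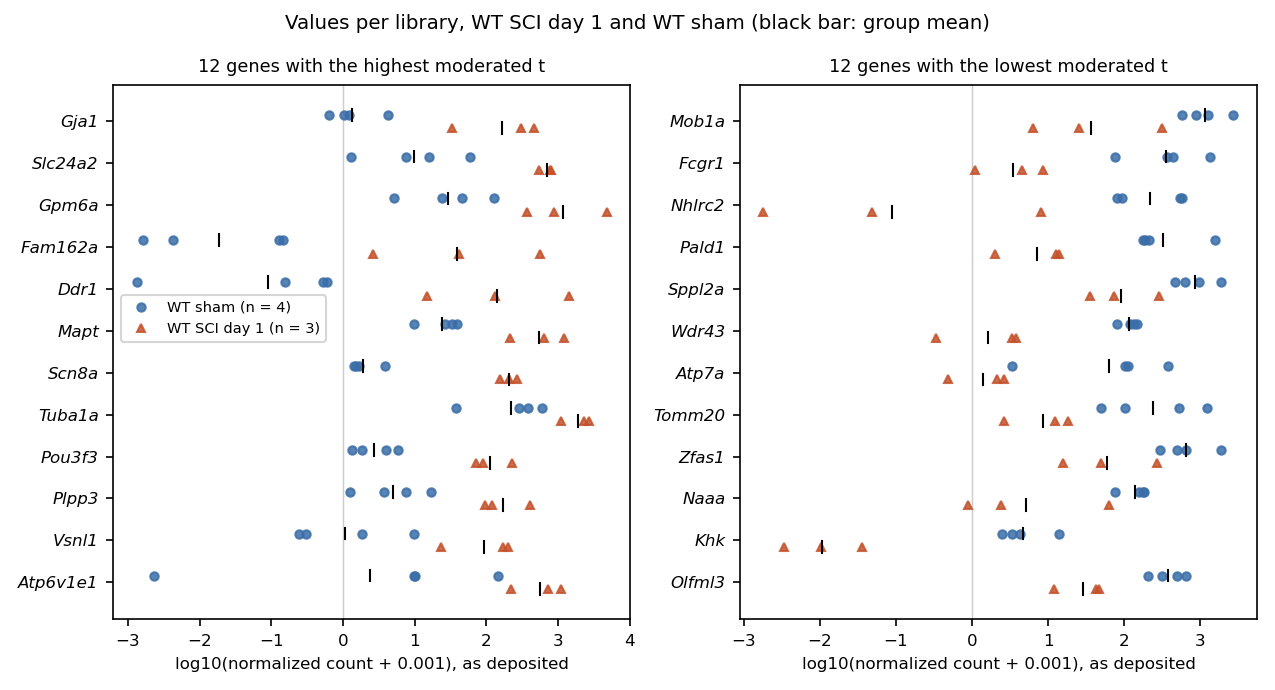
Deposited log10 values (horizontal axis) in 4 WT sham libraries (circles) and 3 WT SCI day 1 libraries (triangles), with black bars at group means, for the 12 genes with the highest (left) and the 12 with the lowest (right) moderated t among genes whose groups do not overlap. *Scn8a* and *Slc24a2* have day 1 libraries close together, and *Nhlrc2*, *Mob1a* and *Naaa* have day 1 libraries far apart.

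Receptor and adhesion genes of the neuronal surface had the largest median differences among the 27 gene lists other than cell type markers. Of 52 genes for glutamate and GABA receptors and their scaffolds, 46 had a fitted difference above 0, with a median of 1.09, and 6 were higher at an unadjusted p-value under 0.05 and 0 lower, against 3.92% and 2.52% of all genes. Of 61 neuronal cell adhesion genes the median was 1.04, with 13 higher and 0 lower. *Dlgap1*, a postsynaptic scaffold protein, had values of 1.07, 1.89, 1.54 and 1.72 in sham and 3.00, 2.79 and 1.98 at day 1. *Ntm*, the adhesion protein neurotrimin, had values of 0.55, 0.16, 1.46 and 1.48 in sham and 3.47, 2.26 and 1.83 at day 1. In both genes the groups were apart, with day 1 replicate 11 nearest to sham. *Cntnap2*, a cell adhesion protein of axons, had values of 0.05, -0.60, 0.37 and 0.40 in sham and 2.79, 2.19 and 0.13 at day 1, with day 1 replicate 11 inside the range of sham.

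The adhesion list depended on 1 library more than the receptor list did, whose median was 0.83 to 1.19 with 5 to 9 genes higher when single libraries were left out. Within batch 1 the medians were 1.31 for receptors and 1.19 for adhesion genes, and within batch 2, with 1 day 1 library and a scale that may differ, they were 0.31 and 0.20. Without day 1 replicate 8, 2 adhesion genes were higher at an unadjusted p-value under 0.05 and the median was 0.77. With the microglia term, 1 adhesion gene was higher and 0 lower, and 1 receptor gene was higher and 1 lower, with medians of 0.27 and 0.74, where 235 of all genes were higher and 198 lower. The pan-neuronal and excitatory sums were also higher in the day 1 libraries, whereas the sums of inhibitory and of layer 5 markers overlapped, and these lists are made of genes that neurons express.

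Synaptic vesicle, channel and cytoskeleton genes showed smaller values in the same direction. Of 68 synaptic vesicle and exocytosis genes, 9 (13.2%, against 3.92% of all genes) were higher and 0 lower, with a median of 0.42. *Snap25*, a SNARE protein of synaptic vesicle fusion, had values of 1.13, 2.11, 1.65 and 2.09 in sham and 2.00, 3.35 and 3.13 at day 1, an overlap through day 1 replicate 1. *Syp*, the vesicle protein synaptophysin, had values of -0.49, 0.34, 0.98 and 0.72 in sham and 2.32, 2.12 and 2.01 at day 1, without overlap. Without day 1 replicate 8 the list had 3 higher and 1 lower with a median of 0.22, without day 1 replicate 1 it had 5 higher, without sham replicate 3 it had 5 higher, and with the microglia term 0 were higher and 2 lower. Over all genes, leaving out single libraries gave 273 to 429 higher and 207 to 314 lower.

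Of 45 potassium channel genes, 4 (8.89%, against 3.92% of all genes) were higher (*Kcnma1*, *Kcnf1*, *Kcna1* and *Kcnd2*), with a median of 0.65, but the median was -0.17 within batch 2, 0 were higher without sham replicate 3, 1 without day 1 replicate 8 with a median of 0.35, and 2 without sham replicate 10, sham replicate 14 or day 1 replicate 11. With the microglia term 0 were higher. Of 35 sodium and calcium channel genes 1 (2.86%) was higher, *Scn8a*, with 3 higher without sham replicate 3 2 without sham replicate 10, 14 or 17, and 2 with the microglia term. Of 10 genes for subunits of the sodium pump, 2 were higher, 1 without day 1 replicate 1 and 0 with the microglia term. *Atp1b1* had values of 1.16, 2.46, 1.62 and 2.72 in sham and 3.66, 3.54 and 2.31 at day 1. *Atp1b2*, the beta subunit that astrocytes express, had values of 1.14, 1.40, 1.19 and 1.17 in sham and 2.80, 2.48 and 1.80 at day 1. The groups overlapped for the first of these subunits and not for the second.

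Growth cone and cytoskeleton genes had a median of 0.41, with 9 of 65 (13.8%, against 3.92% of all genes) higher and 0 lower, and within batch 2 the median was -0.00. With the microglia term 4 were higher and 2 lower. Besides *Mapt* and *Tuba1a*, these included *Ank2*, an ankyrin that anchors membrane proteins to the cytoskeleton, at 0.14, 0.63, 0.52 and 1.79 in sham and 2.38, 2.28 and 1.76 at day 1. *Stmn1*, the microtubule-destabilizing protein stathmin, was at 1.54, 1.51, 2.29 and 1.76 in sham and 3.11, 3.02 and 2.09 at day 1. For both genes 1 day 1 library fell within the range of sham. Axon guidance genes had 3 of 45 (6.67%) higher and 1 (2.22%, against 2.52% of all genes) lower, with 1 higher without day 1 replicate 8 or with the microglia term. The lower gene was *Nrp2*, a semaphorin co-receptor, with 2.40, 2.48, 3.21 and 2.64 in sham and 0.95, 1.87 and 1.80 at day 1.

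**Figure D3:**
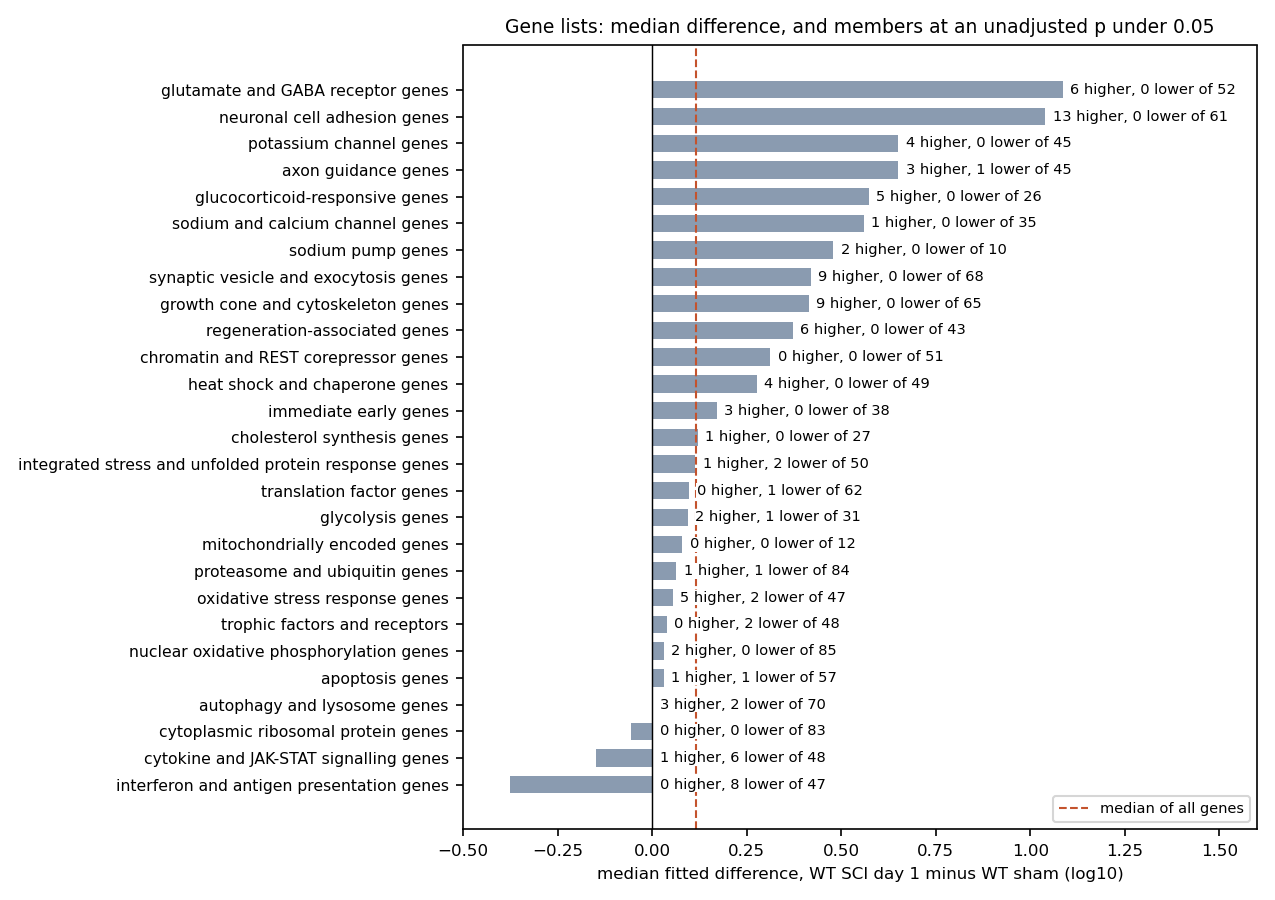
Median fitted difference between WT SCI day 1 and WT sham (horizontal axis, log10 units) of 27 gene lists (bars), with the number of members higher and lower at an unadjusted p-value under 0.05 beside each bar and a dashed line at the median of all genes. Receptor and adhesion genes have the largest medians and interferon genes the lowest, and no member of any list passed an adjusted p-value of 0.1.

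Regeneration-associated genes gave a mixed picture. Of 43 genes, 6 (13.95%, against 3.92% of all genes) were higher at an unadjusted p-value under 0.05 (*Tuba1a*, *Gap43*, *Nrn1*, *Atf2*, *Stmn4* and *Basp1*) and 0 lower, with a median of 0.37. *Gap43*, a growth cone phosphoprotein, had values of 0.09, -0.69, 0.52 and -0.02 in sham and 2.89, 1.95 and 0.78 at day 1, with a fitted difference of 2.17 (standard error 0.64, adjusted p = 0.569). Its groups did not overlap, but the difference of means was 2.72 in batch 1 and 0.53 in batch 2. *Basp1*, another growth cone phosphoprotein, had values of 2.15, 2.20, 1.88 and 2.02 in sham and 3.04, 2.51 and 2.24 at day 1. Without day 1 replicate 8 the median of the list was -0.07 and 3 genes were higher, and with the microglia term 2 were higher. Within batch 2 the median was 0.03.

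The transcription factors that drive the regeneration program in peripheral neurons showed no such separation. *Stat3* had values of 2.69, 2.35, 2.44 and 2.91 in sham and 2.79, 2.27 and 2.71 at day 1 (fitted difference -0.06, standard error 0.28). *Jun* had values of 2.02, 2.13, 2.02 and 2.82 in sham and 2.34, 2.25 and 2.37 at day 1 (fitted difference -0.07, standard error 0.29). *Atf3* had values of 1.29, 0.29, 0.66 and 0.29 in sham and -3.10, 1.02 and 0.78 at day 1. The groups of all of them overlapped, and *Atf3* was under -2 in day 1 replicate 1 alone. *Sox11* (fitted difference -0.72, standard error 1.01) and *Smad1* (0.05, standard error 1.07) were under 0 in all 7 libraries and near the limit of detection. *Rest*, the repressor of neuronal genes that the series deletes in its second genotype, had values of -0.55, -0.26, -0.39 and -1.55 in sham and -1.35, 0.71 and 0.27 at day 1, with a fitted difference of 1.04 (standard error 0.90, adjusted p = 0.920) and overlapping groups. Its mean 3 days after SCI was 1.69 ± 1.16 (SD, n = 3), and 7 days after SCI it was 1.77 ± 1.33 (SD, n = 3). These 6 genes are among 140 that still track 1 of the sequencing components regressed out of the data, unlike the other 9791, so that at least some of their deposited values are not what that step would leave. *Atf2*, *Grid1*, *Pfkm* and *Eif3m* are also among the 140.

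Immediate early genes mark recent neuronal activity. Of 38 genes 3 (7.89%, against 3.92% of all genes) were higher (*Arc*, *Plk2* and *Nrn1*) and 0 lower, with a median of 0.17 that was 0.03 without day 1 replicate 8 and 0.29 to 0.31 without sham replicate 3, sham replicate 17 or day 1 replicate 11, and 1 was higher without day 1 replicate 1, without day 1 replicate 8, without sham replicate 3 or with the microglia term. *Arc*, a regulator of synaptic strength, had values of -2.92, -3.02, -1.26 and -3.37 in sham and -0.10, 1.35 and -1.23 at day 1, and 3 of the 4 sham libraries were under -2. *Plk2*, an activity-induced kinase, had values of -0.19, 0.80, 0.81 and 0.97 in sham and 3.17, 1.88 and 1.46 at day 1.

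The metallothioneins *Mt1* and *Mt2* were well detected in all 7 libraries and separated the groups. *Mt1*, a metal-binding protein induced by stress and glucocorticoids, had values of 2.50, 2.39, 2.59 and 2.19 in sham and 3.27, 3.07 and 2.97 at day 1. Its fitted difference was 0.74 (standard error 0.23, adjusted p = 0.570), or 5.46-fold, and *Mt2* had one of 0.66, also without overlap. The fitted difference with the microglia term was 1.07 for *Mt1* and 0.20 for *Mt2*. *Fkbp5*, a co-chaperone of the glucocorticoid receptor, had values of 1.82, 0.33, 1.23 and 0.56 in sham and 2.41, 2.56 and 2.68 at day 1. *Cdkn1a*, the cell cycle inhibitor p21, had values of 0.58, -2.904, 0.61 and -0.01 in sham and 1.51, 2.12 and 1.65 at day 1. Together with *Klf9* these were the 5 of 26 glucocorticoid-responsive genes (19.2%, against 3.92% of all genes) that were higher, with 0 lower and a median of 0.57. The median was 0.04 within batch 2, the count was 2 without sham replicate 10 or without day 1 replicate 8 and 3 without day 1 replicate 1, and 2 were higher with the microglia term.

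Other stress lists were read against the 3.92% of all genes higher and 2.52% lower. Oxidative stress genes had 5 of 47 (10.6%) higher and 2 lower, with 2 higher without day 1 replicate 1 and 3 without sham replicate 3, sham replicate 17 or day 1 replicate 8. Counts with the microglia term were 2 higher and 0 lower, with a median of -0.05. Among them was *Mt3*, the metallothionein of the brain, at -0.88, -2.998, 0.29 and -0.01 in sham and 2.35, 1.40 and 1.96 at day 1. Heat shock and chaperone genes had 4 of 49 (8.16%) higher (*Hspa12a*, *Hspa2*, *Bag5* and *Dnaja1*) and 0 lower, but 2 higher without sham replicate 3 or day 1 replicate 11. Among genes of the integrated stress and unfolded protein responses, 1 of 50 was higher and 2 lower, with 1 to 3 higher and 1 to 3 lower when single libraries were left out. *Herpud1*, an endoplasmic reticulum stress gene, had values of 2.37, 2.50, 2.23 and 2.32 in sham and 2.95, 3.03 and 2.87 at day 1, with a fitted difference of 0.70 (standard error 0.25, adjusted p = 0.636). *Ppp1r15a*, which encodes the stress phosphatase subunit GADD34, had values of 0.95, 0.54, 0.27 and 0.25 in sham and -1.91, -3.68 and -0.15 at day 1. Both genes separated the groups, in opposite directions. Apoptosis genes had 1 of 57 higher (*Cdkn1a*) and 1 lower (*Htra2*, a mitochondrial protease), with a median of 0.03. Leaving out single libraries gave 0 to 3 higher and 0 to 2 lower, and a median of 0.33 without day 1 replicate 8. The microglia term gave 1 higher and 0 lower for apoptosis, 4 and 1 for heat shock and 2 and 2 for integrated stress genes.

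Interferon and cytokine signalling genes had the lowest medians among the lists other than cell type markers. Of 47 interferon and antigen presentation genes, 8 (17.02%, against 2.52% of all genes) were lower at an unadjusted p-value under 0.05 and 0 higher. A fitted difference below 0 was found in 38 of them and in 4375 of all 9931 genes, and the median was -0.38. *Nlrc5*, the transactivator of MHC class I genes, had values of 2.38, 2.36, 1.65 and 2.11 in sham and 0.69, -0.40 and 0.18 at day 1, with a fitted difference of -2.14 (standard error 0.65, adjusted p = 0.569). *Rsad2*, the antiviral protein viperin, had values of 2.25, 1.76, 1.67 and 1.91 in sham and 0.86, 0.11 and 1.17 at day 1. *Oas1a*, an interferon-induced sensor of double-stranded RNA, had values of 2.66, 1.92, 0.69 and 2.92 in sham and 0.42, 0.07 and 0.47 at day 1. None of these groups overlapped, and *Oas1a* has close paralogs that can share its reads.

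The lower interferon values stood beside the lower microglia markers. The median of the list was -0.69 within batch 1 and -0.04 within batch 2, it was -0.10 with 3 lower without day 1 replicate 8, 5 were lower without sham replicate 3 or sham replicate 17, and with the microglia term it was -0.02 with 1 lower and 1 higher. Of 48 cytokine and JAK-STAT signalling genes, 6 (12.5%, against 2.52% of all genes) were lower and 1 (2.08%, against 3.92%) higher (*Pias2*), with a median of -0.15, 3 were lower without day 1 replicate 1 or without day 1 replicate 8, and 1 was lower and 0 higher with the microglia term. *Ikbkb*, the kinase that activates NF-kappa B, had values of 3.26, 1.86, 2.17 and 3.02 in sham and 1.58, 1.27 and 0.88 at day 1. *Ptpn1*, a phosphatase that restrains cytokine receptors, had values of 2.51, 2.89, 2.74 and 2.33 in sham and 2.04, 1.60 and 2.22 at day 1. Both pairs of groups were apart. Among lysosomal genes, *Hexa*, a subunit of hexosaminidase, was at 2.45, 3.06, 2.59 and 2.72 in sham and 1.49, 2.08 and 1.46 at day 1, and the list of 70 autophagy and lysosome genes had 3 (4.29%) higher and 2 (2.86%) lower, near the shares of all genes, with a median of 0.00, but 1 higher without sham replicate 3, day 1 replicate 1 or day 1 replicate 8, and 4 lower without day 1 replicate 8. Of 48 trophic factors and receptors 2 were lower (*Pdgfb* and *Axl*) and 0 higher, but leaving out any 1 library gave at most 1 lower (0 without sham replicate 17) and up to 3 higher (without day 1 replicate 11), and the microglia term gave 1 higher and 1 lower for this list and for the autophagy and lysosome list.

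Glial markers separated unevenly. In the astrocyte list 6 of 15 genes (40%, against 3.92% of all genes) were higher (*Gja1*, *Slc1a3*, *Slc1a2*, *Clu*, *Aldoc* and *Mlc1*), with a median of 1.06, and 3 with the microglia term. *Slc1a3*, an astrocyte glutamate transporter, had values of 1.75, 2.16, 2.05 and 2.51 in sham and 3.44, 2.95 and 2.56 at day 1. The list median was 1.43 in batch 1 and 0.11 in batch 2, and it was 0.67 with 3 genes higher without day 1 replicate 1 and 1.72 without day 1 replicate 11. The astrocyte sum of day 1 replicate 1 was the highest of the 7. The oligodendrocyte sum of day 1 replicate 1 (2.44) lay within the range of sham. The oligodendrocyte list had the largest median of all lists, 2.00 (1.49 in batch 1 and 2.05 in batch 2). Its fitted differences were above 0 in 14 of 14 genes, against 55.9% of all genes, but in 0 of 14 were the groups apart. In it 4 genes were higher, 9 without day 1 replicate 1, 7 without sham replicate 3, 0 without day 1 replicate 8, 12 with library weights, 9 with values under 0 set to 0 and 0 with the microglia term, where the median was 1.20. Endothelial and mural markers had 3 of 19 (15.8%) higher (*Tek*, *Slco1c1* and *Esam*) with a median of 0.04 (1 higher without day 1 replicate 11, and a median of -0.08 without sham replicate 3 and up to 0.17 without other single libraries), and blood cell markers 0 of 12 with a median of -0.21.

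Genes of basic metabolism and protein synthesis stood close to the median of all genes. None of 83 cytoplasmic ribosomal protein genes and none of 12 mitochondrially encoded genes reached an unadjusted p-value under 0.05, with medians of -0.06 and 0.08. *Rps21*, a small ribosomal subunit protein, had values of 3.83, 3.89, 3.75 and 3.88 in sham and 3.79, 3.58 and 3.82 at day 1. *mt-Cytb*, cytochrome b, had values of 3.93, 3.87, 4.08 and 4.01 in sham and 4.29, 4.00 and 3.93 at day 1. These well-detected genes had close values and overlapping groups. Against 3.92% of all genes higher and 2.52% lower, nuclear genes of oxidative phosphorylation had 2 of 85 higher (*Ndufs5* and *Uqcrb*), proteasome and ubiquitin genes 1 of 84 higher and 1 lower, translation factors 0 of 62 higher and 1 lower, glycolysis genes 2 of 31 higher and 1 lower, and cholesterol synthesis genes 1 of 27 higher (*Srebf1*). Leaving out single libraries gave 1 to 4 higher and 0 to 3 lower for oxidative phosphorylation, 0 to 3 higher and 0 to 4 lower for proteasome, 0 to 1 higher and 1 to 2 lower for translation factor, 1 to 3 higher and 0 to 1 lower for glycolysis and 1 to 3 higher for cholesterol synthesis genes, and 0 to 4 lower for ribosomal protein genes. Counts higher and lower with the microglia term were 2 and 2 for oxidative phosphorylation, 0 and 1 for proteasome, 2 and 0 for translation factor, 1 and 0 for glycolysis, 0 and 0 for cholesterol synthesis and 4 and 0 for ribosomal protein genes. Of 51 chromatin and REST corepressor genes 0 were past the threshold, with a median of 0.31, and 1 was higher with the microglia term.

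The same contrast was measured in the REST cKO libraries labelled as neurons, 2 of SCI day 1 and 3 of sham, none shared with the WT comparison. Their microglia sums of 4.22 to 4.73 were above their pan-neuronal sums of 3.00 to 3.78 in all 5. There, too, 0 genes passed an adjusted p-value of 0.1, while 4.27% of genes were higher and 1.02% lower at an unadjusted p-value under 0.05. Fitted differences were above 0 in 63% of genes and below 0 in 37%. Of the 12 genes with the highest moderated t in WT, 4 had a fitted difference above 0 in REST cKO, and of the 12 lowest, 7 had one below 0. *Gja1* was at 2.26, 1.09 and 1.18 in REST cKO sham and 3.16 and 2.85 at day 1, a difference of 1.47 (standard error 0.55). *Mob1a* was at 2.58, 2.76 and 3.18 in sham and 2.47 and 1.62 at day 1, a difference of -0.88 (standard error 0.38). These had the same sign as in WT, and the REST cKO groups of both genes did not overlap. *Slc24a2* was at 2.51, 1.47 and 2.83 in REST cKO sham and 2.27 and 1.35 at day 1, and *Gpm6a* at 2.90, 1.76 and 3.10 in sham and 3.14 and 1.95 at day 1, with no separation.

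*Tuba1a* went the opposite way, at 3.51, 3.63 and 3.63 in REST cKO sham and 2.53 and 2.51 at day 1. The test of the difference between genotypes gave -2.05 (standard error 0.40, adjusted p = 0.147). *Fcgr1* was at 0.06, 1.51 and 1.42 in REST cKO sham and 1.53 and 1.81 at day 1, with a difference between genotypes of 2.93 (standard error 0.73, adjusted p = 0.599). Across all genes 0 passed an adjusted p-value of 0.1 for the difference between genotypes, and 573 (5.77%) had an unadjusted p-value under 0.05. Differences between genotypes were not tested for lists. The median of receptor genes was -0.05 in REST cKO and that of adhesion genes 0.06, and 0 of 12 pan-neuronal markers had a fitted difference above 0. Interferon genes had a median of 0.32 with 3 of 47 higher and 0 lower, near the REST cKO median of 0.29 over all genes. Fitted differences were above 0 in 14 of 14 oligodendrocyte markers (median 1.29, 2 higher), 10 of 15 astrocyte markers (median 0.23) and 14 of 19 microglia markers (median 0.08). Over all genes 63% were above 0. REST cKO sham libraries had pan-neuronal sums of 3.39 to 3.75, above the 2.10 to 3.07 of WT sham.

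**Figure D4:**
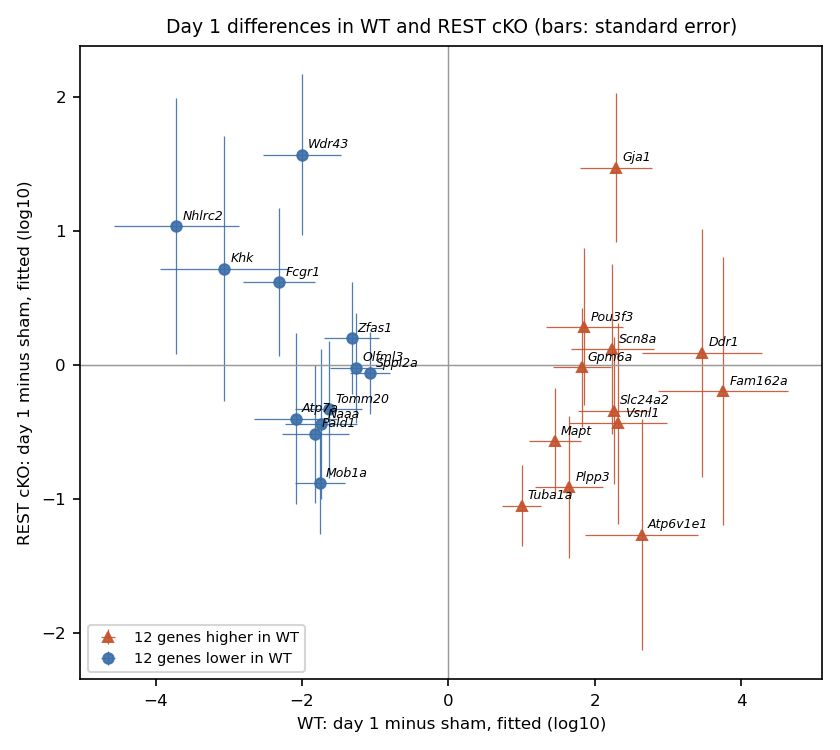
Fitted day 1 minus sham difference (log10 units, bars are standard errors) in WT (horizontal axis) and REST cKO (vertical axis) for the 12 genes highest (triangles) and 12 lowest (circles) by moderated t in WT. *Gja1* and *Mob1a* have the same sign in both genotypes, and *Tuba1a*, *Fcgr1* and *Wdr43* lie on opposite sides of 0.

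Values at later times put the day 1 levels beside the rest of the WT series, which shares the sham libraries. The sham mean of *Gpm6a* was 1.46 ± 0.58 (SD, n = 4). After injury its mean was 3.06 ± 0.57 (SD, n = 3) on day 1, then 2.54 ± 0.29 on day 3 and 1.86 ± 0.35 on day 7, from as many libraries each. The sham mean of *Fcgr1* was 2.55 ± 0.51, and its means after injury were 0.54 ± 0.46 on day 1, then 1.66 ± 0.82 on day 3 and 2.34 ± 0.56 on day 7. No test was made of these later values, since the genes had been chosen on the day 1 and sham libraries.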

How the data were processed

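The authors deposited 1 table of log10 normalized counts. Per the study's methods and labels, reads were aligned to mm10 with STAR, quantified with Salmon, scaled with DESeq2, corrected for batch with RUV, filtered for genes without counts in most samples and cleared of the first 2 principal components of the sequencing metrics by regression. The authors also deposited columns of their own comparisons (fold changes and p-values), which were not used. The scale had been taken for log2, as on an axis of the study. It was settled as log10(count + 0.001) from the values. In 2211 of 9955 genes at least 3 libraries of batch 1 lay on a plane in the 2 components through exactly -3 (tolerance 1e-07), against 0 at 4 other intercepts, and restored values between 1.5 and 10.5 steps were whole multiples of a library's step, within 0.01, in 42.5% of cases in base 10 and 2.10% in base 2. That range was narrowed after a first result, with the same outcome. Values of batches 2 and 3 did not keep a common step, so whole reads were not recovered, no count test was run, and the depth per library and its counting error are unknown. The precision rests on replicate libraries, which the study describes as separate mice.

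Of 9955 rows, 24 (0.241%) without a symbol were left out. The model, fitted to every gene in limma 3.58.1 (R 4.3.3), had a mean for each of 8 groups and the 2 components over 25 libraries, empirical Bayes moderation with a trend, and Benjamini-Hochberg adjustment over 9931 genes, two-sided, at an adjusted p-value under 0.1. Degrees of freedom used by the batch correction are not counted. On simulated data for this comparison with 200 of 9931 genes changed, the fit recovered 1%, 22.5% and 50.5% of changes of 1, 2 and 3 log10 units, and 2 of 4, 10 of 55 and 17 of 118 calls were false, more than the nominal rate. Lists were described by counts and medians in Python 3.11.15, without a set test. Positions are from GENCODE for GRCm38 (9930 genes matched).

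Named genes were the 12 highest and 12 lowest moderated t among genes with a mean of at least 0, a standard symbol and no overlap of the 2 groups, up to 4 members of each list by smallest p-value under 0.05 (otherwise the 2 of highest mean), and a fixed set of transcription factors and markers. Other genes (*Basp1*, *Stmn4*, *Klf9*, *Slc1a2*, *Clu*, *Mlc1*, *Tek*, *Slco1c1*, *Esam*) were named after their values were seen. The members and lists were chosen with earlier results of these data known. Of the alternatives, 17 were set with the design and 8 were chosen after seeing the data: values under 0 set to 0, alone, with a batch term or with library weights, means of at least 0.5, 1 or 1.5, a term for the share of values under -2, and a term for the microglia markers. Some genes are not reported here.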

Additional observations from a re-analysis of the deposited data

Results flagged for a closer look

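Among the 4 WT sham libraries, 1 library stood apart from the others by Dixon's test in 9 of the 112 named genes, where chance alone flags about 1 in 20 groups. The gap to the nearest library, as a share of the range, was 0.923 for *Pald1* (replicate 14, 3.19 against 2.25 to 2.32), 0.845 for *Scn8a* (replicate 17), 0.857 for *Plk2* (replicate 3), 0.853 for *Htra2* (replicate 14), 0.858 for *Hspa2* (replicate 14), 0.867 for *Kcnf1* (replicate 17), 0.853 for *Jun* (replicate 17, 2.82 against 2.02 to 2.13), 0.854 for *Camk2a* (replicate 3) and 0.837 for *Hbb-bs* (replicate 3).

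In 10 named genes the day 1 and sham libraries did not overlap in either genotype and moved in opposite directions. Many named genes had been chosen by their WT values, and the share over all genes was not counted. Separation of 2 from 3 REST cKO libraries is common by chance, so the count is not a result about these genes. The fitted difference between genotypes, REST cKO minus WT, was 2.93 for *Fcgr1*, 3.58 for *Wdr43*, 0.924 for *Grn*, -2.02 for *Mapt*, -2.05 for *Tuba1a*, -5.70 for *Arc*, -4.94 for *Syt13*, -1.57 for *Ndufs5*, -3.60 for *Aldoc* and -5.17 for *Srebf1*. By limma the lowest adjusted p-value among them was 0.147, for *Tuba1a*. REST cKO had 2 day 1 libraries, and the cause was not tested.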

How the results depend on the processing

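No paired analysis was possible because each replicate number in the labels belongs to 1 library, so the groups compared share none. Of the 17 alternatives set with the design and the 8 chosen after seeing the data, those that gave genes at an adjusted p-value under 0.1 were library weights (24), values under 0 set to 0 with library weights (33), a mean of at least 1 (5) or at least 1.5 (5), a sex term (2), quantile normalization (1) and a term for the share of values under -2 (1). Leaving out single libraries gave 0 to 3 genes, with *Mob1a* and *Nhlrc2* among the 3 found without day 1 replicate 1. The difference between genotypes had 1 gene with library weights. No setting was preferred to the reported one, and the cause of these changes was not tested.

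Median list differences moved beyond the spread between libraries as follows. With the microglia term they were 0.27 for adhesion, -0.015 for interferon, 0.74 for receptor, 0.083 for ribosomal, -0.41 for cholesterol and 0.46 for chromatin genes, and 0.32, 0.046 and -0.019 for excitatory, inhibitory and microglia markers. With values under 0 set to 0 they were 0.28 for axon guidance, 0.73 for receptor and 0.20 for potassium channel genes and 0.18 for inhibitory markers. A batch term gave 0.46 for chromatin genes. Leaving out single libraries gave ranges of -0.066 to 0.65 for regeneration-associated, 0.30 to 0.64 for cytoskeleton, 0.064 to 0.33 for apoptosis, -0.48 to -0.10 for interferon, -0.071 to 0.015 for ribosomal and 0.22 to 0.46 for chromatin genes, and 0.46 to 0.97, 0.27 to 1.17 and -0.35 to -0.091 for pan-neuronal, excitatory and microglia markers. The other 445 list medians moved by less. They too could move by over 1.5 times without 1 library, with ranges of 0.029 to 0.31 for immediate early, 0.40 to 0.77 for axon guidance, -0.011 to 0.14 for integrated stress, 0.049 to 0.27 for heat shock, 0.0078 to 0.12 for oxidative stress, -0.29 to -0.11 for JAK-STAT, -0.059 to 0.15 for trophic, 0.22 to 0.62 for synaptic vesicle, 0.35 to 0.89 for potassium channel, 0.25 to 0.75 for sodium and calcium channel, 0.22 to 0.69 for sodium pump, -0.0017 to 0.10 for oxidative phosphorylation, 0.0067 to 0.12 for mitochondrially encoded, 0.022 to 0.14 for translation factor, -0.0092 to 0.16 for proteasome, -0.20 to 0.22 for glycolysis, -0.045 to 0.43 for cholesterol and -0.091 to 0.027 for autophagy genes, and 0.30 to 1.04, 0.48 to 1.39, 0.67 to 1.72, 1.32 to 2.75, -0.076 to 0.17 and -0.46 to 0.013 for layer 5, inhibitory, astrocyte, oligodendrocyte, endothelial and blood markers.

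Of the named genes' fitted differences, 35 turned sign, 46 kept their sign and passed the adjusted threshold under an alternative, and 2475 kept their sign and side of the threshold. With the microglia term *Cadm2* was -0.16, *Rpl30* 0.28, *Smad1* -0.16, *Sox11* 0.57, *Stat3* 0.24 and *Cx3cr1* 0.20. With quantile normalization *mt-Nd4* was -0.057 and *Smad1* -0.61. Without the components, in all groups or in the 2 groups alone, *Jun* was 0.072, *Smad1* -0.094 and *Slc17a7* 0.0012. Library weights gave *Ep300* -0.15 and *Smad1* -0.28, and a sex term gave *Smad1* -0.065. With values under 0 set to 0 *Smad1* was -0.013, with library weights as well *Ep300* was -0.11, *Smad1* -0.00656 and *Atf3* 0.16, and with a batch term as well *Atf3* was 0.090. Leaving out single libraries gave ranges of -0.089 to 0.19 for *Rpl30*, -0.21 to 0.33 for *Ep300*, -0.18 to 0.069 for *Jun*, -0.51 to 0.83 for *Smad1*, -0.15 to 0.22 for *Stat3*, -1.87 to 0.24 for *Atf3*, -0.35 to 0.033 for *Slc17a7* and -0.22 to 1.34 for *Mbp*. Genes with values near or under 0 are limited by detection.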
